A study of Mus musculus with 27 samples.

Results

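The genes described here were the mouse phase II conjugation enzymes: the UDP-glucuronosyltransferases (Ugt), the cytosolic glutathione S-transferases (Gst), the microsomal glutathione S-transferases (Mgst) and the sulfotransferases (Sult). They were taken by symbol, as protein-coding genes of GENCODE vM21 whose name places them in the families Ugt1, Ugt2, Gsta, Gstk, Gstm, Gsto, Gstp, Gstt, Mgst or Sult. This gave 63 of the 22524 genes counted, namely 18 Ugt, 21 cytosolic Gst, 3 Mgst and 21 Sult genes. One further gene of these families in the annotation, Ugt2a1, was not analysed here.

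The 27 libraries came from cultured mouse cells, and the study compared organoids of donors with different microbiotas with each other, with an epithelial cell line and with fibroblasts. Jejunal organoids, which are epithelial structures grown from intestinal crypts, were made from 9 adult C57BL/6 males, with 1 culture per mouse. Of the donors, 3 came from a specific pathogen-free (SPF) facility called SR, 3 from a second SPF facility called SE and 3 from a germ-free (GF) facility. The 3 mice of each facility were cohoused littermates. The other cells were 3 cultures of m-ICc12 and 3 cultures of mouse embryonic fibroblasts (MEF). The study describes m-ICc12 as an immortalised murine small intestinal epithelial line, and it was grown with dexamethasone and insulin. Each organoid culture gave 1 library labelled untreated and 1 labelled as treated with 5 ng/ml tumour necrosis factor (TNF) for 8 h. The m-ICc12 libraries carry the same labels under the numbers M1 to M3, and whether both libraries of a number came from 1 culture is not stated, while the MEF libraries were all labelled untreated. Organoid cultures are named by their donor code (Z908 to Z919), m-ICc12 cultures M1 to M3 and MEF cultures R1 to R3. All m-ICc12 cultures were of 1 line, and nothing in the labels says that the MEF cultures came from separate embryos, so for these cells the spread between cultures may be technical.

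Phase II enzymes attach a polar group to drugs, steroids, bilirubin, bile acids, dietary compounds and products of lipid peroxidation, which makes them easier to excrete. Glucuronosyltransferases sit in the endoplasmic reticulum and use UDP-glucuronic acid. Glutathione S-transferases join glutathione to electrophiles, and sulfotransferases transfer a sulfate from the activated donor PAPS. The small intestinal epithelium is, after the liver, a main site of this chemistry, and many of these genes lie in clusters of related neighbours.

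Libraries held between 6071103 and 43843615 counts, and levels are given as CPM, which are counts scaled to a common library total after trimmed mean of M-values (TMM) normalisation. A level of a culture is the mean over its libraries, and 3 counts corresponded to between 0.0657 and 0.523 CPM in a single library. The names under which the data were deposited and the treatment labels disagreed in all 12 pairs of libraries. Nfkbia, an inhibitor of NF-kB and a well known TNF target, lay between 148 and 227 CPM in the organoid libraries labelled untreated and between 23.6 and 36.4 CPM in those labelled TNF, and Tnfaip3, Nfkb2, Relb and C3 were likewise higher in the library labelled untreated in 9 of 9 organoid and 3 of 3 m-ICc12 cultures. TNF is known to raise these genes, which goes against the labels, so the groups below are called "labelled untreated" and "labelled TNF", and the difference is given as labelled untreated minus labelled TNF.

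The labelled cell kinds were checked with marker genes. The organoids held all 8 intestinal epithelial markers examined at 1 CPM or more, all 9 enterocyte markers and all 6 secretory markers. In m-ICc12 cells 7 of the 8 intestinal epithelial markers reached 1 CPM, and 5 of the 8 did in MEF. The exception in m-ICc12 cells was the intestinal transcription factor Cdx2 (0.366 ± 0.114 CPM, SD, n = 3). The summed level was 2439 to 2727 CPM against 5639 to 6328 CPM in organoids. Krt8, Krt18 and Krt20 stood at 1312 to 1473, 451 to 572 and 563.5 to 712 CPM in m-ICc12 cells. Epcam stood at 2.72 to 6.99 CPM, Cdh1 at 1.12 to 4.31 CPM, Vil1 at 24.05 to 40.6 CPM and Cdx1 at 0.469 to 1.99 CPM. In organoids these genes were at 915 to 1122, 915 to 1079, 587 to 970 and 376 to 509 CPM. Of the enterocyte markers 4 of 9 reached 1 CPM in m-ICc12 cells, and 4 of 9 did in MEF. Their summed level was 11.5 to 45.7 CPM in m-ICc12 cells, 5.79 to 18.5 CPM in MEF and 1849 to 6894 CPM in organoids. In m-ICc12 cells none of the 6 secretory markers reached 1 CPM, and 4 of 5 kidney tubule markers did, with Pax8 between 274 and 314 CPM. The summed level of the kidney tubule markers was 1175 to 1367 CPM in m-ICc12 cells. It was 3.12 to 7.05 CPM in organoids and 5.91 to 12.7 CPM in MEF, and in each of these 1 of the 5 reached 1 CPM. The markers of m-ICc12 cells thus were not those of intestinal epithelium alone. Among the 8 fibroblast markers, 6 reached 1 CPM in the MEF cultures, 4 in organoids and 3 in m-ICc12 cells. One of them, Vim, stood at 2074 to 2819 CPM in m-ICc12 cells against 2355 to 2594 CPM in MEF. Whether these differences in identity set the levels of the conjugation enzymes was not tested. Libraries that stood apart were the Z908 organoid library labelled untreated and the MEF culture R2, which held the liver transcript Alb at 597 and 54.5 CPM, and the m-ICc12 libraries M1 and M3 labelled TNF, in which Lars2 took 13.5% and 4.44% of all counts. The next highest organoid values of Alb were 32.9 and 23.1 CPM, in the Z919 and Z917 libraries labelled untreated. In bulk RNA, fewer cells of a type and less RNA per cell cannot be told apart.

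Promoter windows are shown for genes of 1 cluster that had opposite patterns between the cell kinds. Each runs from 250 bases before to 50 bases after a start site, from RefSeq on GRCm38.p6, read 5′ to 3′ on the gene's strand. Gstm3 (chr3:107969125-107969424, minus strand) and Gstm2 (chr3:107986371-107986670, minus strand) stand next to each other, and Gstm3 was the more abundant in organoids and Gstm2 in m-ICc12 cells. Capitals mark the longest stretch the windows share, of 14 bases.
Gstm3: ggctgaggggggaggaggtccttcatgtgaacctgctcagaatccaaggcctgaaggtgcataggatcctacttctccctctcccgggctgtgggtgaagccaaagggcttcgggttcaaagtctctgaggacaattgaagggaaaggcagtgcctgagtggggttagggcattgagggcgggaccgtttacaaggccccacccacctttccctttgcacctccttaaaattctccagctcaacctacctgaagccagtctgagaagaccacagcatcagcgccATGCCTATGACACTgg
Gstm2: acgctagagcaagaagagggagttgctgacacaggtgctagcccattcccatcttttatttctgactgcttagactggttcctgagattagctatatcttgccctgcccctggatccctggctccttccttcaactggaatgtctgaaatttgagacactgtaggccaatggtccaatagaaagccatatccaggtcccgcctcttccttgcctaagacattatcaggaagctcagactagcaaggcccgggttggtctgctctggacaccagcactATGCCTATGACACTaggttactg
The 14 shared bases begin 34 bases after the start site of Gstm3 and 27 bases after that of Gstm2. They thus lie in the transcribed part of both windows, not in the sequence before the start sites. Motifs were searched on both strands of all 32851 windows, among them the 67 that 56 of the 63 genes have in RefSeq. The antioxidant response element core TGACNNNGC was present in 12.4% of all windows and in 4 of the 67, those of Gsta3, Gstm5, Gstm7 and Mgst1. The HNF4 core AAAGTCCA was present in 1.25% of all windows and in 1 of the 67, a second start of Sult1b1. Neither motif was found in the windows shown, and a match describes letters only.

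Levels in the 3 cell kinds are described first. With the 9 Ugt1a rows, which share most of their reads, counted as 1, 33 of 55 reached a mean of 1 CPM in organoids, 23 in m-ICc12 cells and 14 in MEF, and 12 did so in all of them. At 100 CPM or more were 12 in organoids, 4 in m-ICc12 cells and 1 in MEF. Another 22 genes stayed under 1 CPM in every cell kind, and 10 of these had no count in any library. Among the 22 were all Sult2a genes, which sulfate bile acids and steroids in liver, both Sult3a genes and Sult1e1, the oestrogen sulfotransferase.

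**Figure D1:**
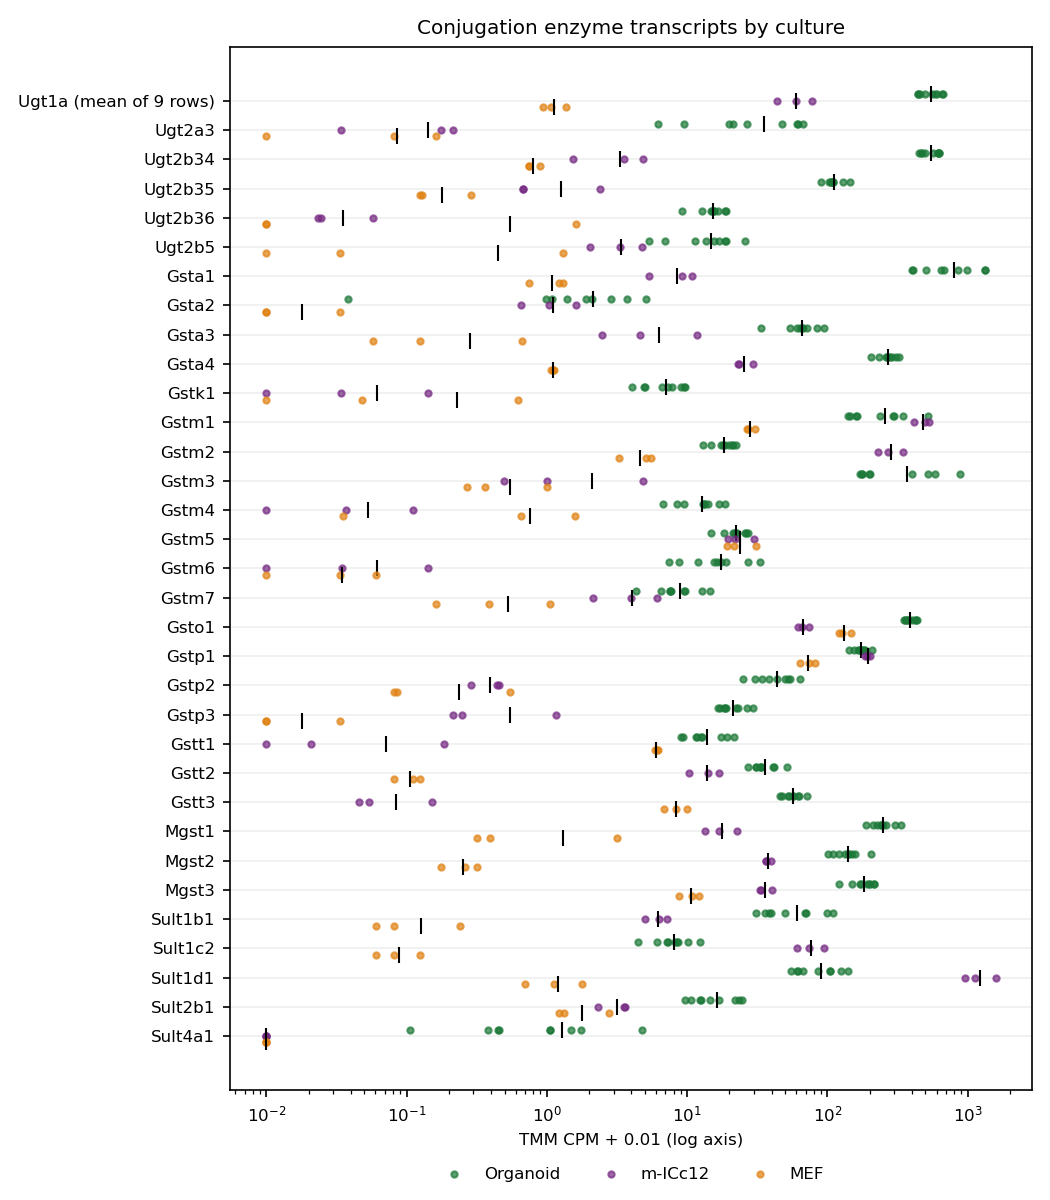
Level of each gene that reached a mean of 1 CPM in at least 1 cell kind (33 rows, with the 9 Ugt1a rows averaged), as CPM + 0.01 on a log axis. Points are cultures (9 organoid, 3 m-ICc12, 3 MEF) and black ticks are means. Organoid points lie furthest to the right in most rows, and those of m-ICc12 do so in the rows of Sult1d1, Sult1c2, Gstm2 and, with overlap, Gstm1.

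The 9 Ugt1a genes, which include the bilirubin-conjugating Ugt1a1, carried largely the same counts, with organoid means from 521 CPM (Ugt1a10) to 659 CPM (Ugt1a7c). They share their last exons (chr1:88215044-88215175, 88215795-88215882, 88216138-88216357 and 88218127-88218997) and differ in a first exon of their own, so reads on the shared exons were counted for each of them. They are therefore 1 measurement here. Averaged over the 9 rows, the locus stood at 544 ± 90.7 CPM in organoids (SD, n = 9, range 439 to 670.0), 60.2 ± 17.0 CPM in m-ICc12 cells (n = 3, 43.4 to 77.3) and 1.11 ± 0.214 CPM in MEF (n = 3, 0.934 to 1.35). The 3 ranges did not overlap. Counts of Ugt1a1 above the shared ones gave an estimate for its own first exon (chr1:88211959-88212871), whose density was 13.7 ± 4.7% of that of the shared exons in organoids (n = 9, 9.0 to 23.7%) and 28.0 ± 6.3% in m-ICc12 cells (n = 3, 22.0 to 34.6%). An antisense gene overlaps this exon and also the exons shared by the 9 genes. Without a known strand setting its reads cannot be told apart from theirs, in these densities or in the level of the locus. Counts above the lowest Ugt1a row were larger still for Ugt1a7c (833 to 6429 per organoid library) and ran from 98 to 1054 for Ugt1a6a, but in those genes 993 and 859 of the exonic bases outside the common exons are shared with other Ugt1a genes, so no density was computed. Ugt1a10, Ugt1a5, Ugt1a2 and Ugt1a8 had at most 5, 22, 32 and 33 counts above the lowest row in any organoid library.

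Among the Ugt2 genes, which conjugate steroids, bile acids and fatty acids, Ugt2b34 led in organoids with 547 ± 75.9 CPM (n = 9, 453 to 627), against 3.31 ± 1.67 CPM in m-ICc12 cells and 0.783 ± 0.0862 CPM in MEF (n = 3 each). Ugt2b35 followed with 112 ± 16.2 CPM, and Ugt2a3, Ugt2b36 and Ugt2b5 had organoid means of 35.6, 15.2 and 14.8 CPM. None of these organoid cultures overlapped with a culture of another kind. Ugt2b37 was the exception of the family, with 131 counts over the m-ICc12 libraries and 1 over the 18 organoid libraries, although it stood only between 0.288 and 0.762 CPM in the m-ICc12 cultures.

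The alpha class Gsta1, which detoxifies products of lipid peroxidation, had the highest organoid mean of all 63 genes, 793 ± 357 CPM, with a low of 404, a median of 679 and a high of 1327 CPM over the 9 cultures. It stood between 5.36 and 10.8 CPM in m-ICc12 cells and between 0.736 and 1.3 CPM in MEF. Of the 100-base stretches of Gsta1, 80.6% also occur in Gsta2, Gm10639 or Gm3776, so how the authors' counting split such reads bears on this value. Gm10639 itself was counted at 65.8 ± 32.7 CPM in organoids. Gsta4, specialised for hydroxynonenal, followed with 270.5 ± 36.2 CPM in organoids, 25.3 ± 3.53 CPM in m-ICc12 cells and 1.09 ± 0.0276 CPM in MEF.

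The mu class did not move as a block. Its 7 genes lie within 149.1 kb of chromosome 3 (107895821 to 108044894, GRCm38), in the order Gstm5, Gstm7, Gstm6, Gstm3, Gstm2, Gstm1 and Gstm4. Gstm3 reached 368 ± 250.4 CPM in organoids but 0.484, 0.997 and 4.83 CPM in the m-ICc12 cultures. Its neighbour Gstm2 showed the opposite, with 18.4 ± 3.06 CPM in organoids and 231, 269 and 349 CPM in m-ICc12 cells. Gstm1 was abundant in both, at 255 ± 124 CPM in organoids and 479 ± 60.8 CPM in m-ICc12 cells, and the highest organoid culture (519 CPM) lay inside the m-ICc12 range (412 to 530.5 CPM). Gstm5 was nearly level, with means of 22.2, 23.8 and 23.9 CPM in organoids, m-ICc12 cells and MEF.

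Gsto1, an omega class enzyme that reduces dehydroascorbate and arsenic species, stood at 390.3 ± 33.8 CPM in organoids, and led in MEF with 132 ± 13.4 CPM. Gstp1, the pi class enzyme found in most tissues, stood at 174 ± 18.7 CPM in organoids, 193 ± 8.78 CPM in m-ICc12 cells and 73.2 ± 9.45 CPM in MEF. Its neighbours Gstp2 and Gstp3, by contrast, had organoid means of 43.5 and 21.2 CPM and stayed under 1 CPM on average in the other cells. Gstp1 and Gstp2 share 25.1% and 46.9% of their 100-base stretches with other genes, which leaves their separate levels uncertain. In the theta class, Gstt3 (56.6 ± 7.94 CPM) and Gstt1 (13.9 ± 4.46 CPM) were found in organoids and, at 8.38 ± 1.56 and 6.04 ± 0.119 CPM, in MEF. In m-ICc12 cells they had 17 and 3 counts over all 6 libraries, whereas Gstt2 from the same cluster stood at 13.8 ± 3.33 CPM there and at 0.0957 ± 0.0224 CPM in MEF. The kappa class Gstk1, a mitochondrial and peroxisomal enzyme, was low throughout, with 7.1 ± 2.11 CPM in organoids.

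The microsomal enzymes Mgst1, Mgst2 and Mgst3, of which Mgst2 can also make leukotriene C4, had organoid means of 251, 140 and 182 CPM. Their m-ICc12 means were 17.7, 37.5 and 35.7 CPM, and only Mgst3 passed 10 CPM in MEF (10.6 ± 1.73 CPM). The Mgst1 mean in MEF rested on R2, which stood at 3.17 CPM against 0.309 and 0.384 CPM in the other cultures, and R2 was also the MEF culture with Alb. Ugt2b36 and Ugt2b5 likewise stood at 1.61 and 1.28 CPM in R2 and at 0.0237 CPM or less in R1 and R3. The part of liver transcripts in these values was not tested.

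Sulfotransferases were led by Sult1d1, which sulfates catecholamines and eicosanoids, with 962, 1124 and 1580 CPM in the 3 m-ICc12 cultures. This was the highest m-ICc12 level of all 63 genes. Organoid cultures held 55.2 to 140 CPM of it and MEF 0.688 to 1.76 CPM, so no group overlapped with another. Sult1c2 had the same order, with 76.4 ± 17.1 CPM in m-ICc12 cells, 8.09 ± 2.26 CPM in organoids and 0.0789 ± 0.033 CPM in MEF. Sult1b1, a thyroid hormone and phenol sulfotransferase and the direct neighbour of Sult1d1 on chromosome 5, was instead highest in organoids (60.3 ± 28.6 CPM) and stood at 6.17 ± 1.12 CPM in m-ICc12 cells. Sult2b1, which sulfates cholesterol, had an organoid mean of 16.3 ± 5.72 CPM.

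**Figure D2:**
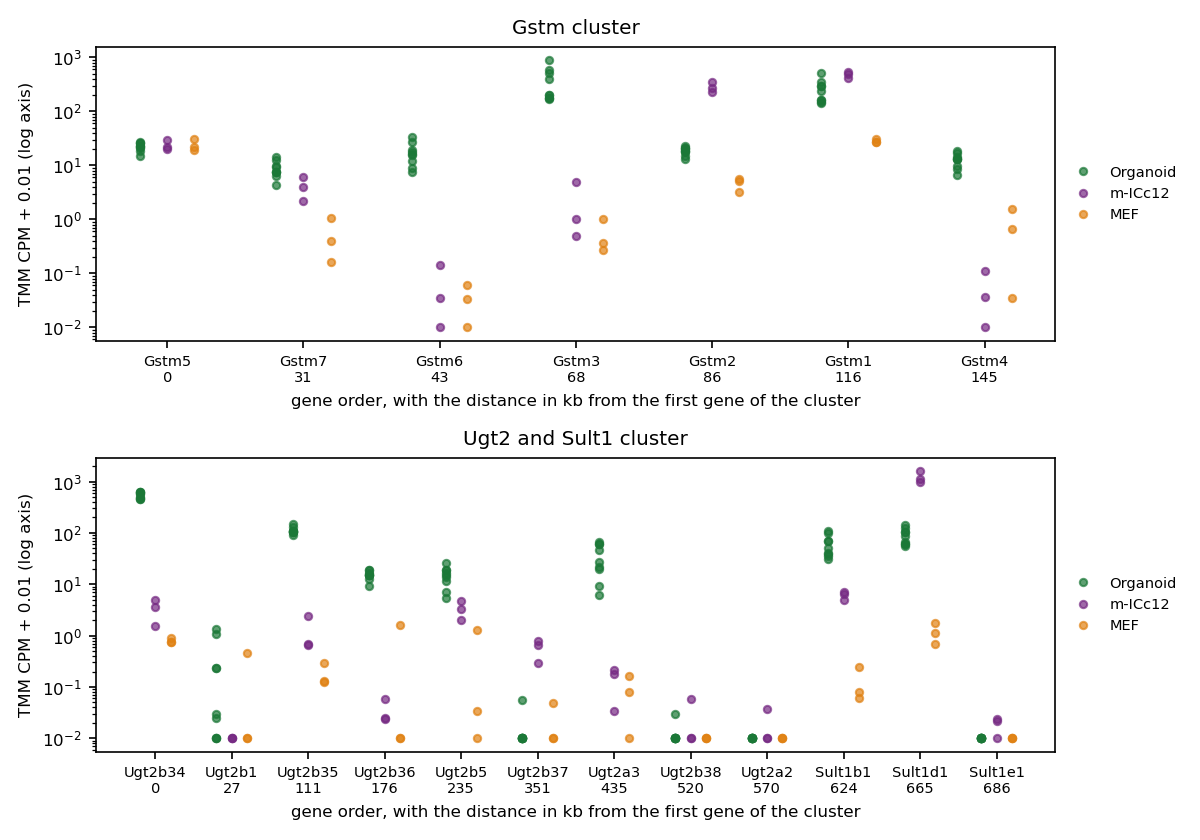
Levels of the genes of 2 clusters in their chromosomal order, as CPM + 0.01 on a log axis, with 1 point per culture and the distance in kb from the first gene under each name. In the Gstm cluster, Gstm3 is high in organoids and the adjacent Gstm2 in m-ICc12 cells. In the Ugt2 and Sult1 cluster, Sult1d1 is the gene with the highest m-ICc12 points.

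Summed by class, with the Ugt1a locus counted once, Ugt transcripts made up 1269 ± 180.2 CPM in organoids, 68.8 ± 19.8 CPM in m-ICc12 cells and 3.28 ± 2.11 CPM in MEF. Cytosolic Gst transcripts summed to 2577 ± 803 CPM, 1108 ± 140 CPM and 281 ± 11.7 CPM in the same order. Sult transcripts had another order, with 1308 ± 338 CPM in m-ICc12 cells, 178 ± 62.5 CPM in organoids and 3.52 ± 1.2 CPM in MEF. To compare genes with each other, CPM was divided by the exon length in kb. On that scale Gsta1 led in organoids (830 ± 374 CPM per kb), followed by the Ugt1a locus (397 ± 66.6 over its 1.311 kb of shared exons), Gstm3 (280 ± 191), Gsta4 (214 ± 28.6) and Gsto1 (193 ± 16.7), and from the Ugt1a locus on, neighbours in this order differed by less than the larger of their SDs. In m-ICc12 cells the order was Sult1d1 (497 ± 130), Gstm1 (325 ± 41.3), Gstm2 (168 ± 35.9) and Gstp1 (125 ± 5.67), with n = 3.

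The next comparison asked how the conjugation enzymes of the epithelial line differed from those of primary organoids. Counts were tested with edgeR's quasi-likelihood F-test over all genes with enough reads, counts of a culture were summed, and a gene was called at a Benjamini-Hochberg adjusted p under 0.05. Enough reads in either group sufficed. In this and the following cell comparisons, a gene nearly absent from the other group could therefore hardly be called in the other direction. The numbers of genes called include such genes, among the conjugation genes and among all genes. Of the 45 conjugation genes tested, 35 were higher in organoids, 5 were lower and 5 were not called. Among all 13479 genes tested, 36.6% were called higher and 34% lower. With the Ugt1a locus as 1 gene, 27 of 37 were higher and 5 lower. The median log2 fold change of the conjugation genes, with each Ugt1a row entered separately, was 3.295, against 0.04 for all genes.

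By class, organoids exceeded m-ICc12 cells in 6 of 7 Ugt measurements (Ugt1a as 1), in 14 of 20 cytosolic Gst genes, in all 3 Mgst genes and in 4 of 7 Sult genes. The largest of these log2 fold changes were those of Gstt1 (9.53 ± 0.66, SE), Gstt3 (9.26 ± 0.27), Sult4a1 (9.16 ± 1.79), Ugt2b36 (9.01 ± 0.46), Gstm4 (8.99 ± 0.65), Gstm6 (8.94 ± 0.78), Gstm3 (8.42 ± 0.84) and Ugt2a3 (8.315 ± 1.05). Several had few counts in the line. Gstt1 had 3 counts there, which gave an 860-fold ratio with a counting interval of 294 to 4170. Sult4a1, a brain-enriched member of unsettled substrate, had no count in the 6 m-ICc12 libraries and was at least 78.3-fold higher in organoids against a floor of 3 counts over the group, though its organoid mean was only 1.27 ± 1.43 CPM and the bound was 51.3-fold without Z908. The fold of Ugt1a1, the row read for the locus, was 9.275 (log2 3.21 ± 0.22, adjusted p = 2.04e-09).

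The 5 genes higher in m-ICc12 cells were Ugt2b37, Gstm2, Sult1d1, Sult1c2 and Gstm1. Gstm2 differed by a log2 fold change of -3.86 ± 0.15 (14.6-fold, adjusted p = 3.12e-12), Sult1d1 by -3.68 ± 0.24 (12.9-fold, adjusted p = 1.84e-09) and Sult1c2 by -3.26 ± 0.23 (9.55-fold, adjusted p = 4.69e-09). Gstm1 differed by -0.90 ± 0.31 (adjusted p = 0.0165), and this call was lost without m-ICc12 culture M1 (-0.85) or M2 (-0.83). For Ugt2b37, with 1 count in all organoid libraries, the ratio was 278 with a counting interval of 49.9 to 10990. Gstp1 (-0.16 ± 0.09, adjusted p = 0.11), Gstm5 (-0.24 ± 0.20, adjusted p = 0.279), Gsta2, Gsto2 and Sult1a1 were not called. Without the Z908 library labelled untreated, 40 genes were called again, and likewise without the M1 and M3 libraries labelled TNF.

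**Figure D3:**
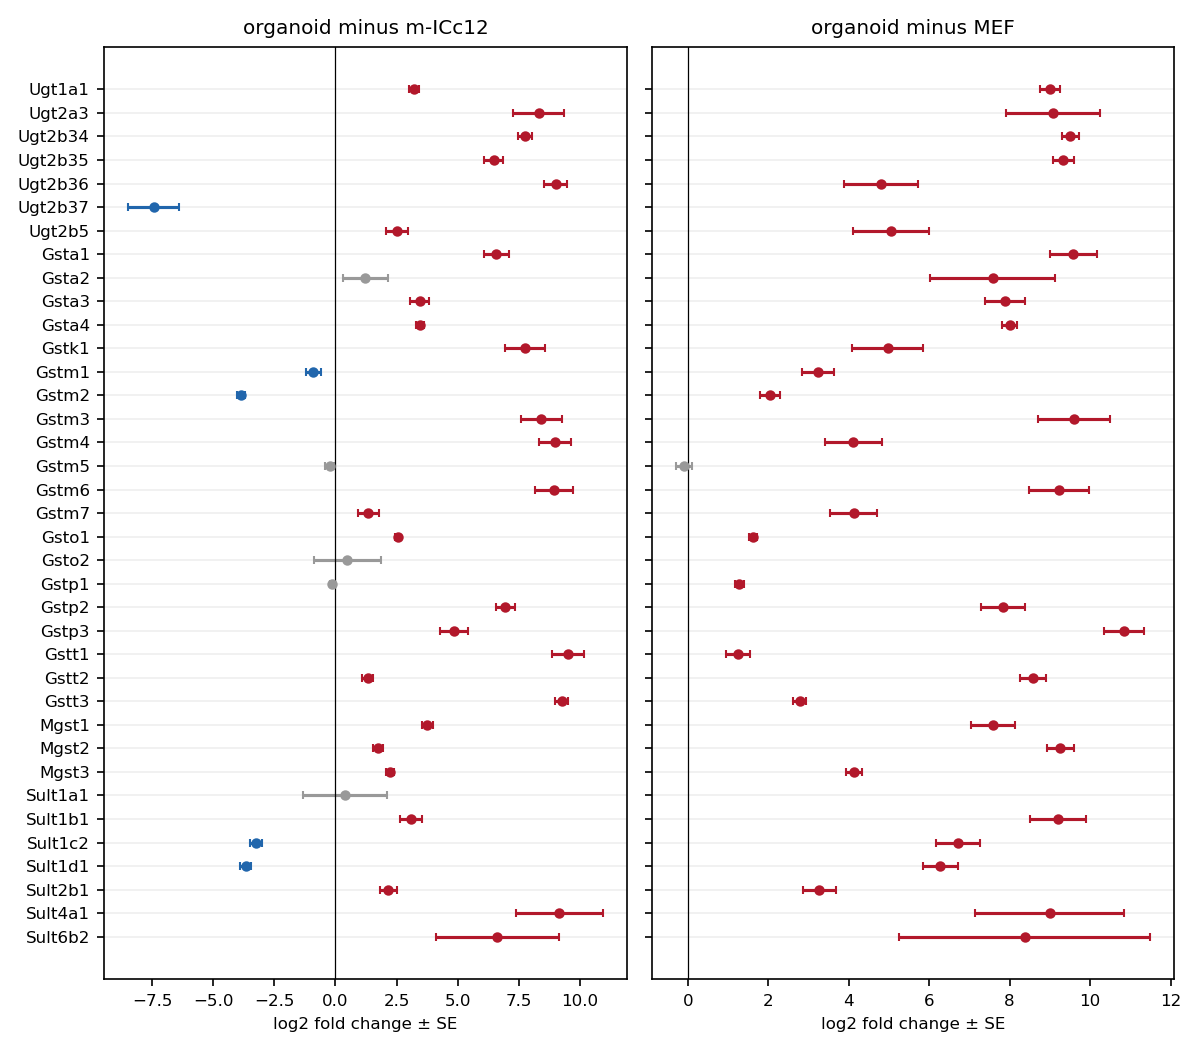
Log2 fold change with its standard error for organoid minus m-ICc12 (left) and organoid minus MEF (right), from edgeR on culture sums. Red marks genes called higher in organoids, blue those called lower and grey those not called, with Ugt1a1 standing for the Ugt1a locus. In the right panel all points are red and lie right of the zero line, except Gstm5, the single grey point, which lies just left of it.

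Against fibroblasts the organoids were higher for 41 of 42 conjugation genes tested and lower for none, while 39.2% of the 13495 genes tested were higher and 34.9% lower. With the Ugt1a locus as 1 gene, 33 of 34 were higher. Organoid and m-ICc12 sums held libraries of both treatment labels, whereas all MEF libraries were labelled untreated. Both comparisons with MEF therefore differed in label as well as in cell kind. Gstm5 was not called (log2 -0.10 ± 0.20, adjusted p = 0.674). The median log2 fold change was 8.19 (7.86 with genes lacking counts in MEF set at their bound), against 0.08 for all genes. Each Ugt1a row entered these medians separately, although the rows are 1 measurement. Ugt2b34 (9.50 ± 0.21, adjusted p = 3.49e-15), Ugt2b35 (9.33 ± 0.25), Mgst2 (9.26 ± 0.335), Gsta1 (9.58 ± 0.59), Gstm3 (9.59 ± 0.89) and Sult1b1 (9.20 ± 0.69) were among the largest. Of these, Ugt2b35, Mgst2 and Sult1b1 stood at 0.307 CPM or less in every MEF culture, so they could hardly be called otherwise than higher. Gstp3 and Gstm6, with 1 and 3 counts in MEF, had ratios of 2288 (counting interval 411 to 90390) and 626 (214 to 3036). Sult4a1 and Sult6b2 had no count in MEF and were at least 45.7-fold and 33.6-fold higher. Without the culture with the highest value these bounds were 29.9 and 21.3, and Sult6b2 was at 0 in 3 organoid cultures. The smallest called differences were those of Gstt1 (2.37-fold), Gstp1 (2.44-fold) and Gsto1 (3.06-fold).

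The epithelial line also exceeded fibroblasts for 28 of 39 conjugation genes tested, was lower for 4, and 7 were not called. With the Ugt1a locus as 1 gene, 20 of 31 were higher and 4 lower. The shares among all 13014 genes tested were 31.1% higher and 31% lower. Sult1c2 (log2 9.97 ± 0.33, adjusted p = 1.39e-10), Sult1d1 (9.93 ± 0.35, adjusted p = 2.46e-10), Mgst2 (7.48 ± 0.31), Gstt2 (7.225 ± 0.49), Sult1b1 (6.03 ± 0.72) and Gstm2 (5.86 ± 0.24) were higher in m-ICc12 cells. The Gsta2, Gstp3 and Ugt2b37 ratios rested on 1 MEF count each, and were 118, 57.5 and 61.3 with lower ends of 21.2, 10.3 and 11.0, and Gstp3 lost its call without M1. Lower in m-ICc12 cells were Gstt1, with 3 counts and a ratio of 372.5 (128 to 1806) in favour of MEF, Gstt3 (-6.53 ± 0.59, adjusted p = 1.25e-06), Gstm4 (-4.86 ± 1.63, adjusted p = 0.0208) and Gsto1 (-0.97 ± 0.13, adjusted p = 3.21e-05). Gstm4 lost its call without any 1 of M1, M2, M3, R1 and R3, with values between -5.64 and -3.75. These 4 genes were thus called lower in m-ICc12 cells than in both other kinds, and 5 genes (Gstm1, Gstm2, Sult1c2, Sult1d1 and Ugt2b37) were called higher than in both. The share of all genes with such calls in both comparisons was not computed, so these counts only list genes.

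Partners of the conjugation enzymes were read from a list of 60 genes for cofactor supply, other conjugating enzymes, efflux transporters, regulators, stress-response enzymes and deconjugation. Between organoids and m-ICc12 cells, 28 of 52 tested were higher, 15 lower and 9 not called, with a median log2 fold change of 0.395, beside the 36.6% higher and 34% lower among all genes. The largest differences were those of Cdx2 (9.20 ± 0.18), the carbonyl reductase Cbr3 (2 counts in m-ICc12 cells), the xenobiotic receptor Nr1i3, known as CAR (8.69 ± 0.61), and the glycine conjugating enzyme Glyat, which was lower in organoids (-8.62 ± 0.585) and stood at 145 ± 32.5 CPM in m-ICc12 cells. Of the 7 efflux transporters, 3 were higher and 4 lower. Against MEF, 36 of 53 partners were higher in organoids and 7 lower (39.2% and 34.9% among all genes), and among the largest differences were those of the regulators Nr1i2, known as PXR (9.76 ± 0.29), Hnf4a (9.325 ± 0.15) and Cdx2 (9.08 ± 0.16). Between m-ICc12 cells and MEF, 29 of 52 were higher and 8 lower (31.1% and 31% among all genes), led by Ggt1, which breaks down extracellular glutathione (9.10 ± 0.39), and the bile acid receptor Nr1h4 (9.07 ± 0.28). Glyat was higher in the line there too (8.11 ± 0.41). Ugt8a, a galactosyltransferase of myelin lipids, had no count in m-ICc12 cells and 0.885 ± 0.863 CPM in MEF.

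The contrast of the treatment labels asked whether TNF changed these enzymes. In organoids 1 of the 41 conjugation genes tested was called, and it was higher in the libraries labelled untreated, where 1.26% of all 12104 genes tested were higher and 0.124% lower. This gene was Gstp1. Its level in the libraries labelled untreated ran from 167 through a median of 196 to 241 CPM, and in those labelled TNF from 115 through 151 to 174 CPM. The 2 groups overlapped slightly, but the library labelled untreated was the higher in 9 of 9 cultures, by ratios of 1.15 to 1.51. The log2 difference was 0.40 ± 0.08 (1.32-fold, adjusted p = 0.00526), and it was 0.38 without the Z908 library labelled untreated. No conjugation gene passed the thresholds of the study, an unadjusted p of at most 0.05 with a log2 difference of at least 0.5, which 2.91% of all genes passed.

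Both libraries of an organoid culture came from the same mouse, and with the culture as a block 3 conjugation genes were called, 1 higher and 2 lower, where 2.15% of all genes were higher and 1.13% lower. Gstp1 was called again (0.40 ± 0.06, adjusted p = 1.53e-05). Mgst2 was lower in the libraries labelled untreated (-0.28 ± 0.07, adjusted p = 0.0215), with a range of 81.4 to 188 CPM against 106 to 220.5 CPM in those labelled TNF. The groups overlapped widely, and 8 of 9 cultures had the lower value in the library labelled untreated. Ugt2a3 was lower as well (-0.48 ± 0.13, adjusted p = 0.0278), in 9 of 9 cultures, with 4.16 to 65.7 CPM against 8.24 to 67.7 CPM. Mgst1 and Gstm3 had adjusted p = 0.0757 and 0.0539 in the same fit. Without the block these 4 genes were not called, for instance Mgst2 at adjusted p = 0.582 and Mgst1 at 0.728.

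**Figure D4:**
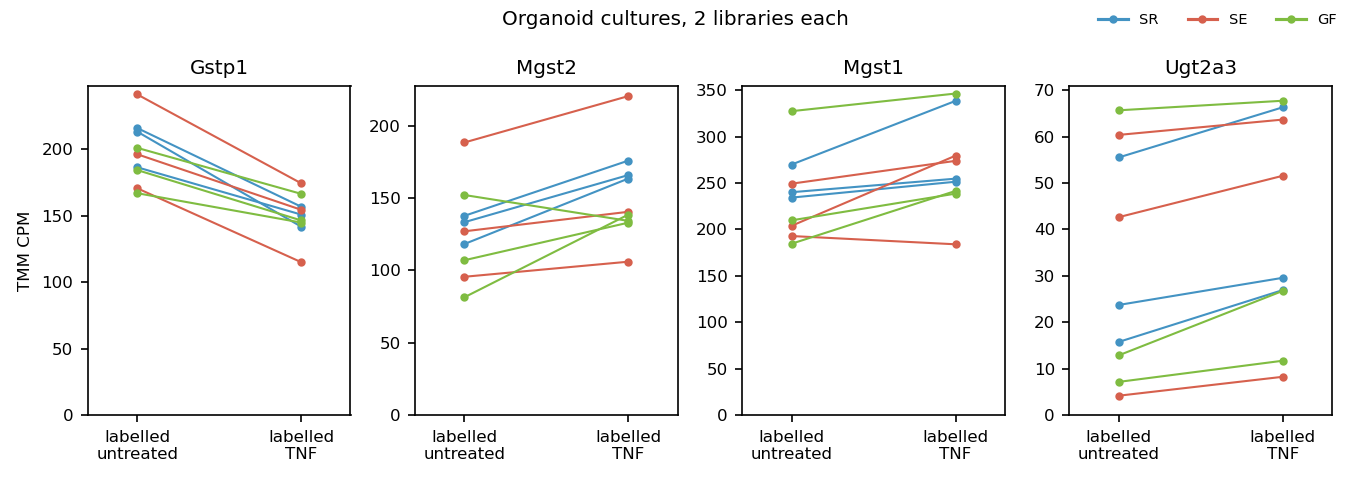
CPM of Gstp1, Mgst2, Mgst1 and Ugt2a3 in the 9 organoid cultures, with the library labelled untreated joined to the library labelled TNF of the same culture and colours for the donor facility. Gstp1 lines fall from left to right in 9 of 9 cultures and Ugt2a3 lines rise in 9 of 9, while cultures differ more from each other in Ugt2a3 than their paired libraries do.

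In m-ICc12 cells no conjugation gene of 34 tested was called by edgeR, and DESeq2 called none either, while 0.0927% of all 11861 genes were higher and 0.0169% lower. At an unadjusted p under 0.05 there were 9, and the same 9 passed the thresholds of the study, 3 higher and 6 lower, where 3.75% of all genes did. Without the M1 library labelled TNF, the shallowest of the series, 2 genes had an unadjusted p under 0.05. The 6 lower ones were rows of the Ugt1a locus, whose log2 difference was -0.52 ± 0.23 for Ugt1a1 (adjusted p = 0.996). The others were Mgst2 (0.74 ± 0.26, adjusted p = 0.916), Ugt2b37 and Gstp3. Mgst2 stood at 58.1, 48.3 and 35.3 CPM in the libraries of M1, M2 and M3 labelled untreated and at 20.9, 24.4 and 37.9 CPM in those labelled TNF. Gstp3 was low in all 6 libraries, at 2.14, 0.394 and 0.36 CPM against 0.174, 0.0808 and 0.048 CPM. Gstp1 stood at 194.5, 204 and 188 CPM against 175, 200.5 and 197 CPM, and was higher in the library labelled untreated in 2 of 3 cultures.

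Whether the label contrast differed between organoids and m-ICc12 cells was tested directly. Of 43 conjugation genes none was called, against 0.129% higher and 0.0303% lower of 13183 genes, with 6 genes at an unadjusted p under 0.05, and 5 genes past the study's thresholds, where 5.67% of all genes were. DESeq2 called Gstp3. The smallest p belonged to Gstp3 (difference of log2 differences -3.24 ± 0.75, adjusted p = 0.0822), Mgst2 (-1.02 ± 0.30, adjusted p = 0.307) and Ugt2b35 (1.33 ± 0.45). With the culture as a block, which also blocks the m-ICc12 libraries by numbers that did not pair them in the data, 6 rows were called, 4 higher and 2 lower, where 0.569% and 0.212% of all genes were. They were Gstp3 (-2.485 ± 0.55, adjusted p = 0.0382), Mgst2 (-1.035 ± 0.24, adjusted p = 0.0427) and 4 rows of the Ugt1a locus (for Ugt1a6a 0.48 ± 0.11, adjusted p = 0.04). For Gstp1 the difference was 0.365 ± 0.16 with adjusted p = 0.664.

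Of the partner genes, 1 of 49 was called in the organoid label contrast, where 1.26% of all genes were higher and 0.124% lower, and edgeR called none of 48 in m-ICc12 cells. The gene called was Abcc4, an efflux pump for conjugates and cyclic nucleotides, which was higher in the organoid libraries labelled untreated (28.7 to 56.7 CPM against 9.72 to 30.6 CPM, log2 0.89 ± 0.18, adjusted p = 0.00583) and higher in 9 of 9 cultures. In m-ICc12 cells Abcc4 stood at 258 to 321.5 CPM in the libraries labelled untreated and 260 to 295 CPM in those labelled TNF.

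The last question was whether the microbiota of the donor left a mark on these genes. Donors of a facility were cohoused littermates, so microbiota, facility, litter and cage cannot be told apart in the facility comparisons. Between GF and SPF organoids (3 against 6 cultures) edgeR called none of 45 conjugation genes, against 0.0463% higher and 0.00771% lower of 12970 genes, and 1 gene had an unadjusted p under 0.05 and passed the thresholds of the study, where 2.04% of all genes did. It was Sult1a1, which had no count in the GF cultures (adjusted p = 0.999), and which DESeq2 called. Its SR cultures stood at 4.97, 0.0905 and 0.231 CPM and its SE cultures at 1.18, 0.728 and 0 CPM. The highest of these values came from the Z908 library labelled untreated (9.94 CPM), the library with 597 CPM of Alb, and without that library edgeR had no conjugation gene at an unadjusted p under 0.05. Ugt1a6a and Ugt1a6b, next in order of p, differed by -0.22 ± 0.14 on the log2 scale.

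Between SE and SR organoids (3 against 3 cultures) edgeR and DESeq2 called none of 45 genes, where 0.00775% of 12908 genes were higher and 0% lower, and 3 genes had an unadjusted p under 0.05 and passed the thresholds of the study, which 2.72% of all genes did. Sult2a8, a liver bile acid sulfotransferase, was lower in SE (3.35, 0 and 0.259 CPM in SR against at most 0.0163 CPM in SE), and its SR value again rested on the Z908 library labelled untreated with 6.7 CPM. Gstm6 stood at 15.6, 19.03 and 33.0 CPM in SE and 8.73, 17.4 and 7.38 CPM in SR, and Gstp2 at 38.0, 49.9 and 64.2 CPM against 24.9, 43.5 and 30.2 CPM. Their groups overlapped, and their log2 differences were 1.00 ± 0.34 and 0.64 ± 0.23 (both with an adjusted p of 1).

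Cultures also differed from each other within a facility. Of the genes with an organoid mean of at least 10 CPM, Ugt2a3 had the widest range over the 9 cultures (6.2 to 66.7 CPM, 10.8-fold), followed by Gstm3 (172 to 878 CPM, 5.11-fold), Ugt2b5 (4.91-fold), Gstm6 (4.475-fold) and Gstm1 (3.69-fold). Gsto1 (351 to 438 CPM, 1.25-fold) and Ugt2b34 (1.38-fold) had the narrowest. Gsta1, Gstm3, Gstm1, Ugt2a3 and Sult1b1 each had their 4 highest values in the cultures Z909 (SR), Z912 and Z913 (SE) and Z918 (GF), a grouping noticed after the values were seen. Gstm3, for example, stood at 522, 402, 878 and 585 CPM there and between 172 and 201 CPM in the other 5 cultures. Gsta3, Gstm6, Sult1d1, Sult2b1 and Ugt2b34 had their 4 highest values in the same cultures, so the grouping was not particular to the genes first named. Gsto1 did not follow it, and the share of all genes that did was not computed.

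The same 4 cultures had the highest levels of the brush border enzymes Sis and Lct and of the fatty acid binding protein Fabp2. Lct stood at 199.8, 177, 236 and 254 CPM in them and between 19.1 and 54.7 CPM in the others, and Sis at 2175 to 3315 CPM against 846 to 1577 CPM. The summed level of all 9 enterocyte markers ranged from 1849 to 6894 CPM over the organoid cultures, and the stem cell marker Olfm4 was highest in Z919 (1283 CPM). Lgr5, another stem cell marker, had its 4 lowest values in the same 4 cultures (93.4, 145, 86.7 and 104 CPM) and stood between 170.5 and 242 CPM in the others. Smoc2 had its 3 lowest values in Z909, Z913 and Z918 (439 to 466 CPM), and Ascl2 ranged from 10.9 to 28.4 CPM without following these cultures. The part of these markers in the spread of the conjugation enzymes was not tested.

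**Figure D5:**
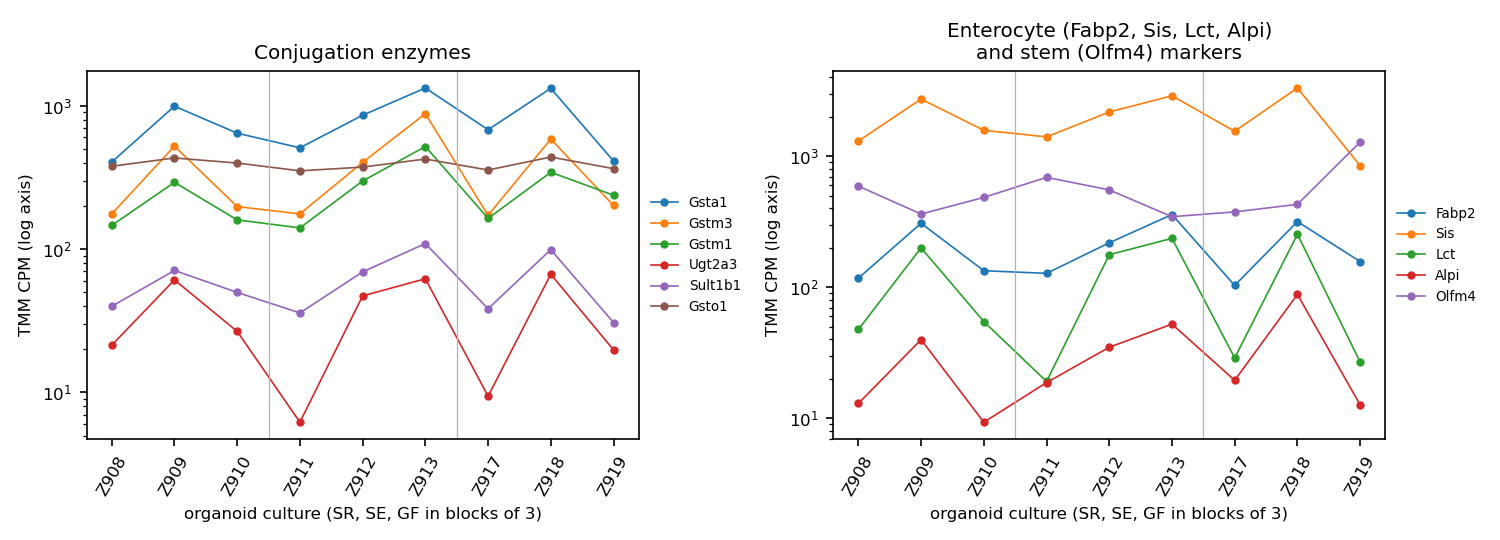
CPM of 6 conjugation genes (left) and of 4 enterocyte markers and the stem cell marker Olfm4 (right) in the 9 organoid cultures, on log axes, with SR, SE and GF donors in blocks of 3. Gsta1, Gstm3, Gstm1, Ugt2a3 and Sult1b1 peak in Z909, Z912, Z913 and Z918, as do Sis, Lct and Fabp2, while the Gsto1 line stays between 351 and 438 CPM.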

How the data were processed

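RNA-seq libraries of jejunal organoids, m-ICc12 cells and MEF were analysed from the deposited gene counts. Per the labels and the methods of the study, the authors made single-end poly-A libraries, which the labels but not the methods call stranded, trimmed reads with Trimmomatic, aligned them to GRCm38 with STAR (2.5.4b in the submitters' processing notes) and counted reads per gene, and these counts were deposited without normalisation. The sources name featureCounts and another counter, and the strand setting of the counting is not given in the sources used here. A read in exons shared by several Ugt1a genes is found in the count of each.

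Ensembl identifiers were mapped to GENCODE M21 symbols. Groups followed the labels, and the culture sums of organoids and m-ICc12 cells joined libraries of both treatment labels. A gene was tested when 50% or more of the libraries or culture sums in any group reached 10 counts. Tests used edgeR 4.0.16 (R 4.3.3), with TMM normalisation and the quasi-likelihood F-test, with Benjamini-Hochberg adjustment over all genes tested. Cell kinds and facilities were compared on culture sums, labels on single libraries. Each SE was the log2 fold change divided by the square root of F. Limits for 0 counts and ratios on 1 to 3 counts used a floor of 3 counts over the group and exact Poisson 95% intervals, which cover counting error only. DESeq2 1.42.0, RLE factors, no filter, subsets by label, a culture block, a facility term, 1 fit of all groups and leaving out each culture were alternatives. Fits were tested on simulated data.

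Both libraries of an organoid culture came from the same donor mouse. Their deviations from the group means correlated by 0.173 on average (0.078 to 0.292 over the 9 cultures), so the blocked values are given where they changed a call. Nothing in the labels says that m-ICc12 or MEF cultures were independent, so their p-values measure only the spread between these samples.

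Named were, per cell kind, the 5 conjugation genes with the highest mean, the highest of each subfamily, up to 8 called genes with the largest change in each direction per cell comparison, and the called genes, or else the 3 with the smallest p, in the others. Other genes named beside them were chosen after their values were seen. Members, lists and tests were chosen with earlier results of these data known. One gene of the partner list and a motif are not reported here.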

Additional observations from a re-analysis of the deposited data

Results flagged for a closer look

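In the 9 organoid libraries of each label, 10 of the 70 gene and label groups examined had a highest library farther from the others than Dixon's 95% limit allows. Chance gives about 1 in 20 such groups for normally distributed values, a rate that does not hold where most libraries are at or near 0. The 70 groups were 35 named genes under each label, with several rows of the Ugt1a locus among them. These genes were named from the same values, Sult1a1 and Sult2a8 for their small p in the facility comparisons. The 10 groups therefore cannot be set against that rate and only list libraries. Among the libraries labelled untreated, Z908 stood apart for Sult1a1 (9.944 CPM, others 0 to 0.915 CPM), Sult2a8 (6.704 CPM, others 0 to 0.0327 CPM) and Sult4a1 (5.624 CPM, others 0.0443 to 1.549 CPM). The same library held Alb at 597 CPM and Cyp2e1 at 156 CPM, and the part of liver transcripts in these values was not tested. Gstm1 stood apart in Z913 (539.0 CPM, others 132 to 331 CPM). Gstt3 and Ugt2b35 stood apart in Z919, at 81.17 CPM (others 44.3 to 60.6 CPM) and 169.4 CPM (others 98.2 to 133 CPM). This Z919 library held Alb at 32.9 CPM and Cyp2e1 at 13.8 CPM, and the part of liver transcripts was not tested here either.

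Among the libraries labelled TNF, Z911 stood apart for Gstm4 (19.92 CPM, others 9.76 to 14.1 CPM), Sult1a1 (2.354 CPM, others 0 to 0.542 CPM) and Ugt2b37 (0.09053 CPM, others 0). Z910 stood apart for Sult2a8 (0.5187 CPM, others 0). With all others at 0, any read in 1 library would have met this limit. The Ugt2b37 value is the single organoid count of this gene.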

How the results depend on the processing

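The number of conjugation genes called lay between 38 and 42 for organoids against m-ICc12 cells, between 39 and 42 for organoids against MEF and between 28 and 35 for m-ICc12 cells against MEF over all alternatives, and no named gene reversed its direction. In the organoid label contrast Gstp1 was called in every alternative run, and the culture block raised the count from 1 to 3. For the difference of label contrasts the count of 0 became 1 with DESeq2 (Gstp3), 6 with the block, and between 0 and 1 without each culture in turn, the 1 being Mgst2 without M3. Between GF and SPF organoids DESeq2 called 1 gene, Sult1a1, and between SE and SR organoids no alternative called any. In the m-ICc12 label contrast no alternative called a gene. There the culture numbers did not pair the libraries, since their deviations correlated by 0.031 on average (-0.007 to 0.092), and the fit with the culture as a replicate block called 0, with 11 genes at an unadjusted p under 0.05. Without the M1 library labelled TNF, the shallowest, 2 genes instead of 9 had an unadjusted p under 0.05.

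Among single genes, Gstm1 lost its call for organoids against m-ICc12 cells without M1 or M2, and for m-ICc12 cells against MEF Gstp3 lost it without M1 (4.48), as did Gstm4 without M1, M2, M3, R1 or R3 (-5.64 to -3.75) and in libraries labelled TNF only (-3.72). The causes were not tested. Leaving out the Z908 library labelled untreated, or the M1 and M3 libraries labelled TNF, was chosen after seeing the data and gave 40, 41 and 30 calls in the cell comparisons, against 40, 41 and 32 with all libraries. Depth limits the genes near 3 counts, and the shared Ugt1a exons and near-identical Gsta and Gstp copies limit what single rows of those families can show.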
